A study of Homo sapiens with 6 samples.

Results

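The integrated stress response was followed through 10 genes, out of 23368 in the deposited count table. They are the regulatory subunits of the eIF2-alpha phosphatase (PPP1R15A, PPP1R15B), 3 kinases of eIF2-alpha (EIF2AK2, EIF2AK3, EIF2AK4), the transcription factors ATF4, ATF3, DDIT3 and CEBPB, and the pseudokinase TRIB3. The genes were taken by symbol, and the set was selected on the measured read counts. It was selected because, scaled to library size, those of PPP1R15A and ATF3 are lower in the SOX10 libraries than in the controls. Their values between the groups are therefore given as a description, and nothing rests on a test of them. All 10 had enough reads to enter the fit, which took in 10678 genes.

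The cells were 1205Lu, an established human line of metastatic melanoma. Both groups were transiently transfected with FuGENE 6 and 7.8 µg of plasmid per flask and were lysed 24 h later. The SOX10 group received pCMV6-SOX10, which drives the neural crest transcription factor SOX10 from a viral promoter, and the control group received pCMV6 without the insert, with 3 biological replicates each. Every library therefore comes from transfected cells of a single line, and no untransfected cells are compared here.

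When eIF2-alpha is phosphorylated, most translation slows while a few mRNAs, that of ATF4 among them, are translated better. EIF2AK2 (PKR) is activated by double-stranded RNA, EIF2AK3 (PERK) by unfolded protein in the endoplasmic reticulum and EIF2AK4 (GCN2) by amino acid shortage. ATF4 and its targets DDIT3 (CHOP), ATF3 and TRIB3 change transcription, and PPP1R15A (GADD34), an inducible target, brings protein phosphatase 1 to eIF2-alpha and ends the signal, a task that PPP1R15B (CReP) carries out constitutively. Much of this pathway works through phosphorylation and translation, which mRNA counts do not measure.

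The start regions of the genes were searched for short elements, of which some are given here. RefSeq windows on GRCh38.p14, from 250 bases before to 50 bases after an annotated start, were found for all 10 genes, in 16 windows. The cAMP response element TGACGTCA, a site to which ATF and CREB proteins can bind, was searched on both strands and lay in PPP1R15A alone among the 10, 58 bases before its start. It lay in 1.85% of all 35116 windows and in a window of 2.25% of all 27305 gene symbols. The shorter core TGACG, which TGACGTCA contains on each strand, lay in 4 of the 10 genes (PPP1R15A, PPP1R15B, ATF4 and CEBPB) and in 28.4% of all gene symbols, or 24.6% of all windows. The stretches that follow show the 160 bases before the start of PPP1R15A (chr19:48872261-48872420, plus strand) and of its paralog PPP1R15B (chr1:204411818-204411977, minus strand), with these elements in capitals.
PPP1R15A: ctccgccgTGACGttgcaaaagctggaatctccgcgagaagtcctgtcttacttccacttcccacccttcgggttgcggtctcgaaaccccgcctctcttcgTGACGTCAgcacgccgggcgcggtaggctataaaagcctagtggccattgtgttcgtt
PPP1R15B: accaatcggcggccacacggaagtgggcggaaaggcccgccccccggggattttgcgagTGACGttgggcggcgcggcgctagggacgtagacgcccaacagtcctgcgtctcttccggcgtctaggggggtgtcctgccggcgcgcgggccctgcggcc

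ATF3 has several annotated starts. Relative to the start of the GENCODE release 29 transcript ATF3-202, the RefSeq windows belong to starts at -43263 and 6348 bases, and neither window holds TGACG. The C/EBP-ATF composite TGATGNAA (N is any base) lay in 2 of the 10 genes. These were ATF3, 191 bases before its start at -43263, and PPP1R15B, 227 bases before its start. It lay in 4.46% of all gene symbols, or 3.62% of all windows. The AP-1, E-box, CCAAT and TATA motifs were also searched and are not listed here. The stretch around the start of ATF3-202 itself (chr1:212608659-212608688, GRCh38, plus strand) was read from the longer transcript ATF3-211 and holds the core TGACG on the other strand, in capitals.
ATF3: ctattaatagcattaCGTCAgcctgggact
For EIF2AK2, an interferon-inducible gene, the start region (chr2:37156961-37157040, minus strand) holds an interferon element, a pair of GAAA with any 2 bases between them, in capitals, which lay in 3.57% of all windows and 4.38% of all gene symbols.
EIF2AK2: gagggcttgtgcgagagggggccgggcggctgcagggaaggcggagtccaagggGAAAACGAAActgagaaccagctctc
For SOX sites a single form of the core, AACAAT, was searched. It lay in none of the 16 windows of the 10 genes and in 10.1% of all windows, or 12.2% of all gene symbols. Other forms of the core were not searched, so the windows may hold them. A match of letters is not evidence of binding, and its absence from a short window shows nothing about a factor.

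The libraries were shallow and differed in depth between the groups. Reads assigned to genes ranged from 2544420 to 4167393 in the SOX10 libraries and from 867917 to 2066520 in the control libraries, so that a single read was worth 0.242 to 0.399 CPM (the count scaled to library size, with TMM factors) in the SOX10 libraries and 0.488 to 1.15 CPM in the control libraries. Depth thus moves with the treatment, and the fit was repeated after thinning every library to equal depth by a single random draw of reads. The reads of the 10 genes numbered 2945 to 4504 per SOX10 library and 1085 to 2451 per control library. Counted SOX10 reads overlapped between the groups, at 18.7 to 34.6 CPM in the SOX10 libraries and 16.6 to 21.5 CPM in the control libraries, whereas PMP2, the gene the study is named for, stood at 17.7 to 24.9 CPM in the SOX10 libraries and 0 to 1.95 CPM in the control libraries. Of 8 melanoma and pigment cell markers, S100B and ERBB3 were abundant in every library, with at least 271 CPM, whereas MLANA, TYR and DCT had 4, 9 and 6 reads over all 6 libraries. The summed level of 12 keratinocyte and epithelial markers was 6.69 to 19.4 CPM in the SOX10 libraries and 11.1 to 19.6 CPM in the control libraries, and that of 12 leukocyte and endothelial markers was 13.8 to 24.3 CPM in the SOX10 libraries and 15.5 to 19.99 CPM in the control libraries. SOX10 replicate 1 and control replicate 3 held fewer reads outside genes than the others, 93.5 and 97.0 per 100 assigned reads against 121 to 135.

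The phosphatase subunits parted from each other. PPP1R15A had 77.7, 93.7 and 76.8 CPM in the SOX10 libraries, against 193, 179.9 and 154 CPM in the control libraries. All 3 SOX10 libraries lay below all 3 control libraries, and the highest SOX10 value was well under the lowest control value. The means were 82.7 ± 9.54 CPM in the SOX10 libraries and 176 ± 20.3 CPM in the control libraries (SD, n = 3 each), on 290, 235 and 317 reads in the SOX10 libraries and 175, 156 and 315 reads in the control libraries. The fitted log2 fold change of PPP1R15A was -1.08 (SE 0.13), a fold of 0.473 with a 95% confidence interval from 0.392 to 0.572. Of all tested genes 0.328% had a lower fitted value. In bulk RNA, less message per cell and fewer cells that express the gene cannot be told apart.

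PPP1R15B, the constitutive paralog, had 112, 119 and 98.1 CPM in the SOX10 libraries, against 127, 112 and 91.2 CPM in the control libraries. The groups overlapped almost fully. The log2 fold change of PPP1R15B was 0.02 (SE 0.14), and the interval of the fold, from 0.827 to 1.24, holds moderate differences in either direction. Its sign depended on single libraries, with -0.13 without control replicate 3 and 0.13 without control replicate 1. Among the libraries with one left out in turn, PPP1R15A ranged from -1.18 without control replicate 3 to -1.003 without control replicate 1, and after thinning to equal depth it had -1.11.

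**Figure D1:**
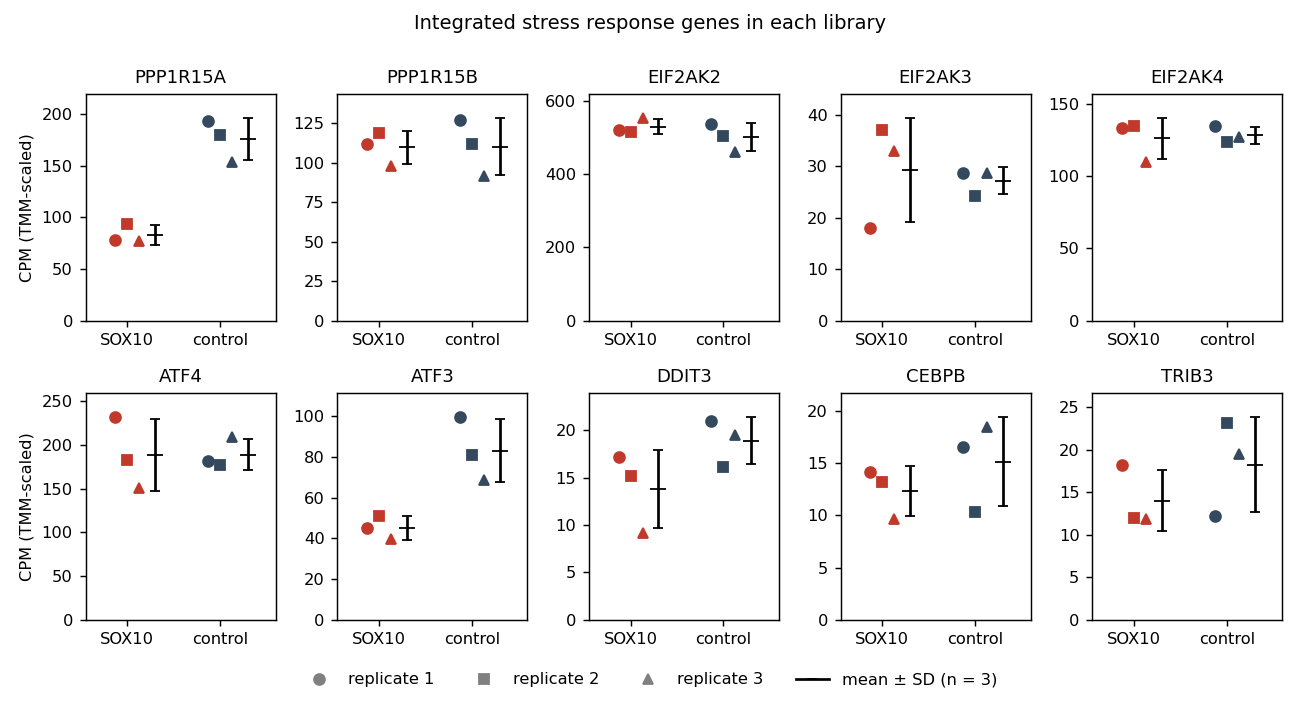
Level of each of the 10 genes in each library, in TMM-scaled CPM on linear axes that start at 0, with the SOX10 libraries left of the controls, a symbol for each replicate number, and the mean ± SD of 3 libraries beside them. The groups are separate for PPP1R15A, at 76.8 to 93.7 CPM in the SOX10 libraries against 154 to 193 CPM in the controls, and for ATF3, at 39.5 to 51.1 CPM in the SOX10 libraries against 68.8 to 99.5 CPM in the controls, and overlap for the other 8 genes.

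The ratio of reads of the paralogs inside a library does not depend on the scaling between libraries. There were 0.694, 0.789 and 0.783 PPP1R15A reads per PPP1R15B read in the SOX10 libraries, against 1.52, 1.61 and 1.68 in the control libraries. PPP1R15A was thus the less counted of the pair in each SOX10 library and the more counted in each control library. As a share of the reads of both genes, PPP1R15A made up 43.0% ± 1.76 in the SOX10 libraries and 61.6% ± 1.204 in the control libraries (SD, n = 3 each). The exact 95% binomial intervals, which cover counting error only, ended at 48.4% or below in each SOX10 library and began at 54.5% or above in each control library. A ratio alone does not show which of the genes differed between the groups, and the levels given above do. PPP1R15A was chosen for being lower in these libraries, so its ratio is a further description of them and supports nothing.

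The groups overlapped for each of the 3 kinases. EIF2AK2, the sensor of double-stranded RNA, had the most reads of the 10 genes, with 521, 516 and 553 CPM in the SOX10 libraries, against 537, 505 and 460 CPM in the control libraries. Its log2 fold change was 0.09 (SE 0.10, the smallest of the 10 on the log2 scale), with an interval of the fold from 0.923 to 1.22. EIF2AK4, the sensor of uncharged tRNA, had 134, 135 and 109.97 CPM in the SOX10 libraries, against 135, 123 and 127 CPM in the control libraries. For EIF2AK4 the log2 fold change was -0.03 (SE 0.13), with an interval of the fold from 0.819 to 1.18. EIF2AK4 changed sign with the library left out, between -0.08 without SOX10 replicate 1 and 0.07 without SOX10 replicate 3.

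EIF2AK3, the kinase of the endoplasmic reticulum, was counted much less often and varied more. It had 17.9, 37.1 and 32.9 CPM in the SOX10 libraries, against 28.7, 24.2 and 28.8 CPM in the control libraries. SOX10 replicate 1 was the lowest of all 6 libraries and the other SOX10 libraries were the highest, so the control libraries lay between them. The log2 fold change of EIF2AK3 was 0.08 (SE 0.26), from -0.10 without SOX10 replicate 2 to 0.34 without SOX10 replicate 1, and the interval of the fold ran from 0.729 to 1.53. SOX10 replicate 1 also had the fewest reads outside genes per assigned read, and with these reads as a covariate EIF2AK3 had 0.08 (SE 0.23). On the opposite strand, 14.4% of the exonic bases of EIF2AK3 belong to another gene in GENCODE release 29. Whether the counting used strand is not stated for these counts, so its reads may not be fully separated. EIF2AK1, the heme-regulated kinase, is not among the 10 genes and is named here because it completes the kinase family. It had 76.6 ± 8.76 CPM in the SOX10 libraries and 74.7 ± 7.39 CPM in the control libraries (SD, n = 3 each), giving a log2 fold change of 0.01 (SE 0.15).

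The mRNA of ATF4, the transcription factor at the centre of the response, had nearly the same mean in both groups and spread among the SOX10 libraries. ATF4 had 232, 183 and 150.2 CPM in the SOX10 libraries, against 181, 176 and 209 CPM in the control libraries. The SOX10 libraries held both the highest and the lowest value. Its log2 fold change was -0.02 (SE 0.14), with an interval of the fold from 0.811 to 1.21. Without SOX10 replicate 1 it was -0.20, and without SOX10 replicate 3 it was 0.13. GENCODE release 29 names 4 ATF4 pseudogenes, and reads that fit both a pseudogene and the gene may have been lost to the class of reads with more than 1 place, so the level of ATF4 is uncertain to that extent.

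ATF3, a stress-induced factor that represses as well as activates, was lower. It had 44.99, 51.1 and 39.5 CPM in the SOX10 libraries, against 99.5, 80.7 and 68.8 CPM in the control libraries. The groups did not overlap, and control replicate 3 was the closest of the controls to the SOX10 libraries. The means were 45.2 ± 5.79 CPM in the SOX10 libraries and 83.0 ± 15.5 CPM in the control libraries (SD, n = 3 each), on 168, 128 and 163 reads in the SOX10 libraries and 90, 70 and 141 reads in the control libraries. The fitted log2 fold change of ATF3 was -0.86 (SE 0.17), a fold of 0.551 with an interval from 0.432 to 0.704. Of all tested genes 0.955% had a lower fitted value.

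The value of ATF3 moved with the library left out. It was -0.71 without control replicate 1, -0.77 without SOX10 replicate 3, -0.86 without SOX10 replicate 1, -0.86 without control replicate 2, -0.95 without SOX10 replicate 2 and -1.005 without control replicate 3. Of these 6 fits, ATF3 kept an adjusted p under 0.05 by edgeR in the one without control replicate 3. It also missed that level with the replicate number as a block (-0.87, adjusted p by edgeR 0.0995), with upper-quartile scaling (-0.83) and by limma-voom (-0.84). After thinning, ATF3 had a log2 fold change of -1.09. Set against ATF4 in the same library, there were 0.194, 0.279 and 0.263 ATF3 reads per ATF4 read in the SOX10 libraries, against 0.549, 0.458 and 0.329 in the control libraries. The groups did not overlap in this ratio. The exact binomial intervals of the ATF3 share met, ending at 25.4% in SOX10 replicate 2 and beginning at 21.3% in control replicate 3.

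**Figure D2:**
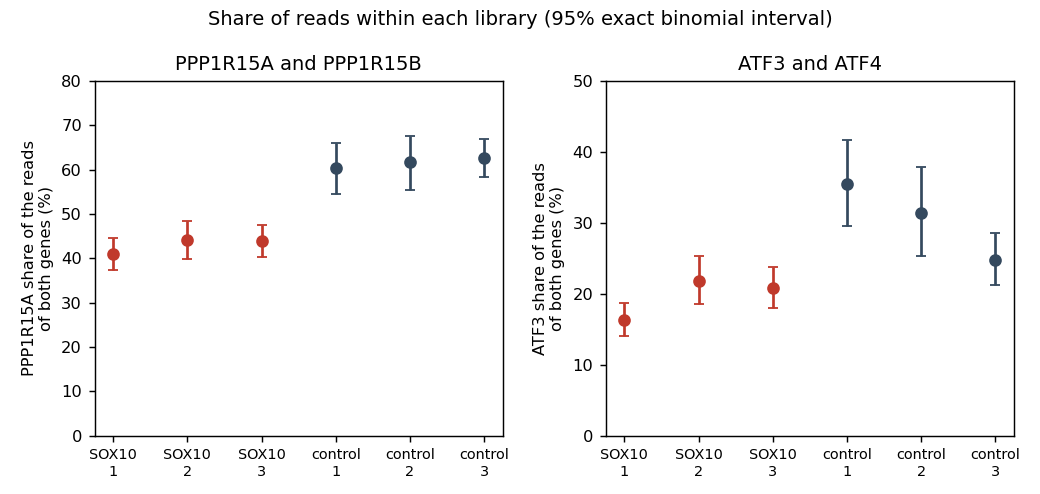
Share of reads of PPP1R15A among the reads of PPP1R15A and PPP1R15B (left) and of ATF3 among those of ATF3 and ATF4 (right) in each library, in percent, with exact 95% binomial intervals that cover counting error only. PPP1R15A made up 41.0% to 44.1% in the SOX10 libraries against 60.3% to 62.7% in the controls, and ATF3 16.3% to 21.8% in the SOX10 libraries against 24.8% to 35.4% in the controls.

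DDIT3, CEBPB and TRIB3 had few reads, and their groups overlapped. DDIT3, the factor that promotes cell death under lasting stress, had 17.1, 15.2 and 9.20 CPM in the SOX10 libraries, against 21.01, 16.1 and 19.5 CPM in the control libraries. SOX10 replicate 3 was the lowest and SOX10 replicate 1 lay above control replicate 2. The log2 fold change of DDIT3 was -0.47 (SE 0.30), with an interval of the fold from 0.472 to 1.10. It was -0.23 without SOX10 replicate 3 and -0.995 (SE 0.42) after thinning. DDIT3 shares 27.2% of its exonic bases with MARS on the opposite strand in GENCODE release 29, so that reads of the pair may not have been separated. Another gene shares 8.03% of the exonic bases of DDIT3 on the same strand, where counting by strand would not separate the reads. A further gene shares 4.44% on the opposite strand. MARS, a methionyl-tRNA synthetase named here for its overlap with DDIT3, had a log2 fold change of -0.09 (SE 0.16).

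CEBPB, a leucine zipper factor that pairs with ATF4 and DDIT3, had 14.2, 13.2 and 9.69 CPM in the SOX10 libraries, against 16.6, 10.4 and 18.5 CPM in the control libraries. Control replicate 2, with 9 reads, lay among the SOX10 libraries. The log2 fold change of CEBPB was -0.36 (SE 0.31), with an interval of the fold from 0.4998 to 1.21, and it was -0.14 without control replicate 3 and -0.20 without SOX10 replicate 3. The antisense gene CEBPB-AS1 covers 11.8% of the exonic bases of CEBPB. TRIB3, which binds ATF4 and DDIT3 and dampens them, had 18.2, 12.0 and 11.9 CPM in the SOX10 libraries, against 12.2, 23.1 and 19.5 CPM in the control libraries. SOX10 replicate 1 and control replicate 1 each lay within the range of the other group. For TRIB3 the log2 fold change was -0.38 (SE 0.30), with an interval of the fold from 0.500 to 1.17. It was -0.63 without SOX10 replicate 1, -0.24 without control replicate 2 and -0.04 (SE 0.40) after thinning. The random loss of reads in thinning also moves genes with so few reads. The fitted values of DDIT3, CEBPB and TRIB3 were negative in the main fit and without any single library, while their intervals at this depth held values on both sides of 1.

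**Figure D3:**
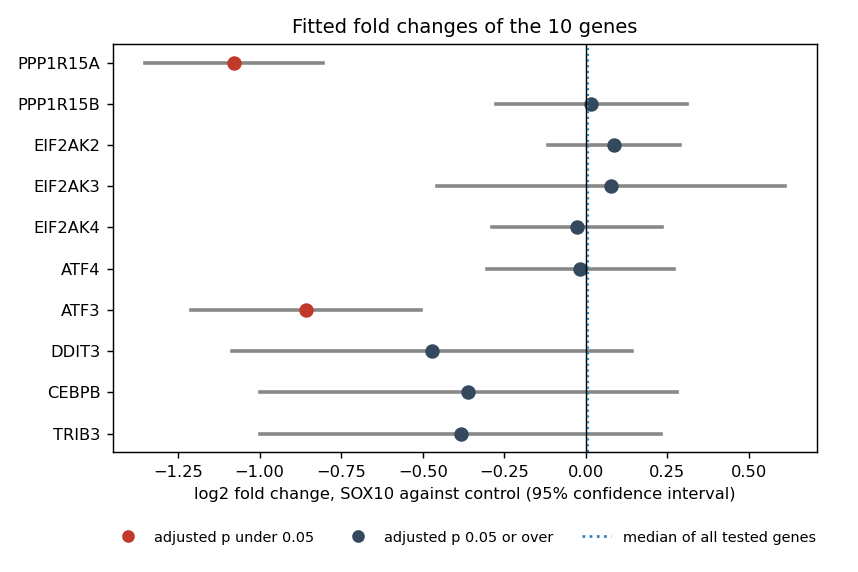
Fitted log2 fold change, SOX10 against control, of each of the 10 genes (points) with 95% confidence intervals (lines), the median of all tested genes at 0.0076 (dotted line) and genes with an adjusted p under 0.05 in red. PPP1R15A at -1.08 and ATF3 at -0.86 lie apart from 0, and the intervals of the other 8 genes include 0.

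Over the 10 genes, PPP1R15A and ATF3 were the 2 with an adjusted p under 0.05 by edgeR, both lower in the SOX10 libraries. Of all tested genes, 0.112% passed in either direction, 0.103% as lower and 0.00937% as higher, and nothing is read from the members' count, since these genes were chosen for it. The groups did not overlap in 2 of the 10 genes, both lower in the SOX10 libraries, against 11.8% of all tested genes in either direction and 6.03% as lower. The log2 fold change was negative in 7 of the 10 genes, against 48.7% of all tested genes, with a median of -0.19 against 0.0076 over all tested genes. The non-overlap, the signs and the median include PPP1R15A and ATF3, chosen for being lower, so nothing is read from these either. The median of the 10 was -0.045 after thinning, -0.35 without SOX10 replicate 1 and -0.12 without SOX10 replicate 3. Thinned values of the genes not yet given were 0.11 for EIF2AK2, 0.16 for EIF2AK3, -0.05 for EIF2AK4, -0.0010 for ATF4, -0.32 for CEBPB and -0.012 for PPP1R15B. The signs of ATF4 and EIF2AK4 turned with upper-quartile scaling and without a low-count filter, each of which left 5 of the 10 negative. The p-values set the difference between the groups against the spread between the 3 replicates of each group, which the labels call biological. The edgeR fit estimates this spread with information shared across genes.

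Per kilobase of exon in GENCODE release 29, ATF4 had the highest mean level over the 6 libraries, at 75.01 CPM per kb, followed by EIF2AK2 at 47.9, PPP1R15A at 41.8, PPP1R15B at 21.02, ATF3 at 15.9, DDIT3 at 12.5, EIF2AK4 at 10.6, CEBPB at 7.03, EIF2AK3 at 5.21 and TRIB3 at 4.70 CPM per kb. In this order ATF4 was separated from EIF2AK2, and PPP1R15A from PPP1R15B, in every library, and all other neighbours overlapped in range. The place of PPP1R15A differed between the groups. It stood at 26.8 CPM per kb in the SOX10 libraries, below EIF2AK2 at 49.3 CPM per kb in the same libraries, and at 56.8 CPM per kb in the control libraries, above EIF2AK2 at 46.6 CPM per kb there. Comparisons between genes rest on the merged length of all annotated exons, 3.09 kb for PPP1R15A and 10.75 kb for EIF2AK2. The annotation that was counted is not stated, so the order of the genes may differ with other lengths. In the SOX10 libraries ATF3 stood at 11.2 CPM per kb, close to DDIT3 at 10.6 and EIF2AK4 at 10.5 CPM per kb, whereas in the control libraries ATF3 at 20.5 CPM per kb was next to PPP1R15B at 21.1 CPM per kb.

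The wider pathway was read from 6 further lists, some of which share genes. No gene of these lists passed an adjusted p of 0.05 by edgeR, in either direction, and DESeq2 and limma-voom also called 0 genes in each. At an unadjusted p under 0.05 the edgeR test found 6.23% of all tested genes, and the counts of each list at that level are given below as a description.

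Genes that act on or with eIF2 itself lay on both sides of 0, from -0.23 to 0.45 on the log2 scale. Of 24 genes for the subunits of eIF2 and its exchange factor eIF2B, catalytic subunits of protein phosphatase 1 and regulators of the kinases, 23 were tested, 1 had an unadjusted p under 0.05, and 11 were negative, with a median log2 fold change of 0.01. That median moved between -0.0086 without control replicate 1 and 0.076 without control replicate 3. Besides the kinds named, the list holds the kinase EIF2AK1, given above, further initiation factors and actin genes. DNAJC3, which inhibits EIF2AK2 and EIF2AK3, had 101 ± 12.5 CPM in the SOX10 libraries and 80.7 ± 24.3 CPM in the control libraries, with a log2 fold change of 0.35 (SE 0.17). EIF2S2, the beta subunit of eIF2, had 104 ± 2.87 CPM in the SOX10 libraries and 119 ± 8.01 CPM in the control libraries (SD, n = 3 each), with -0.20 (SE 0.12). The groups did not overlap for EIF2S2.

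Of 43 listed targets of ATF4 and DDIT3, 39 were tested, 7 had an unadjusted p under 0.05 and 26 were negative, with a median log2 fold change of -0.09. The median was -0.019 without control replicate 3, -0.032 without SOX10 replicate 3 and -0.14 without SOX10 replicate 1. DDIT4, an inhibitor of mTORC1, had 32.9, 22.3 and 19.6 CPM in the SOX10 libraries, against 33.2, 39.2 and 47.3 CPM in the control libraries. The groups were separate, but SOX10 replicate 1 and control replicate 1 nearly met. DDIT4 had a fitted value of -0.71 (SE 0.23) on the log2 scale, with an adjusted p by edgeR of 0.472. VEGFA, the vascular growth factor, had 28.5 ± 4.30 CPM in the SOX10 libraries and 41.3 ± 8.74 CPM in the control libraries (SD, n = 3 each). Its log2 fold change was -0.59 (SE 0.21), at an adjusted p by edgeR of 0.530. The 7 genes with an unadjusted p under 0.05, named after their values were seen, pointed both ways. The secreted stress cytokine GDF15 had -0.66 (SE 0.27), the autophagy receptor SQSTM1 -0.27 (SE 0.11) and the death receptor TNFRSF10B -0.26 (SE 0.11). ASNS, which makes asparagine, had 0.26 (SE 0.12), and MTHFD2, of mitochondrial one-carbon metabolism, 0.30 (SE 0.14).

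Other genes listed as leucine zipper factors, some of which can pair with ATF3, ATF4 or CEBPB, numbered 43, and 34 of them were tested. Of these 5 had an unadjusted p under 0.05 and 22 were negative, with a median log2 fold change of -0.14. The median was -0.049 without SOX10 replicate 3 and -0.047 over the 29 genes tested after thinning. JUNB, which forms part of AP-1, had 42.8, 33.5 and 27.6 CPM in the SOX10 libraries, against 49.8, 48.4 and 75.1 CPM in the control libraries. JUN, the partner of ATF3 in many settings, had 58.4, 49.1 and 40.0 CPM in the SOX10 libraries, against 67.4, 78.4 and 76.1 CPM in the control libraries. All SOX10 libraries lay below all control libraries for both genes. The log2 fold change was -0.79 (SE 0.21) for JUNB and -0.60 (SE 0.17) for JUN, with adjusted p-values by edgeR of 0.245 and 0.305. The list had 1 call without a low-count filter and 1 with reads outside genes as a covariate.

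PPP1R15A and DDIT3 are also known as growth arrest and DNA damage genes, and 17 of 20 listed genes of that kind were tested. Of these 7 had an unadjusted p under 0.05 and 13 were negative, with a median log2 fold change of -0.29, or -0.07 over the 13 that were tested after thinning. PLK2, a stress-induced kinase, had 601 ± 52.7 CPM in the SOX10 libraries and 764 ± 63.2 CPM in the control libraries (SD, n = 3 each). Its log2 fold change was -0.35 (SE 0.10), at an adjusted p by edgeR of 0.316. DDIT4, described above, had the next smallest p. GADD45A, named after its values were seen, had 55.4, 55.04 and 41.4 CPM in the SOX10 libraries, against 73.0, 63.4 and 72.7 CPM in the control libraries, and a log2 fold change of -0.48 (SE 0.17).

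Interferon-stimulated genes were listed because EIF2AK2 is one of them and because transfected DNA can set off the same response. All 40 listed genes were tested, 5 had an unadjusted p under 0.05 and 24 were negative, with a median log2 fold change of -0.11. Without control replicate 3 the median was 0.015, with 20 of 40 negative, and it was -0.040 without SOX10 replicate 3 and -0.071 after thinning, over 39 genes. Their summed level was 17320 to 19208 CPM in the SOX10 libraries and 17274 to 20814 CPM in the control libraries, and the ranges overlapped as those of EIF2AK2 did. Whether transfection changed the level of these genes was not tested, since no untransfected cells are compared here. CCL5, a chemokine, had 54.6, 26.7 and 16.96 CPM in the SOX10 libraries, against 92.9, 27.7 and 119 CPM in the control libraries, a log2 fold change of -1.36 (SE 0.34), at an adjusted p by edgeR of 0.215. CXCL11, another chemokine, had 17.8 ± 8.28 CPM in the SOX10 libraries and 40.03 ± 36.7 CPM in the control libraries (SD, n = 3 each), with -1.35 (SE 0.39). The groups overlapped for both chemokines. The list had 2 calls without SOX10 replicate 1 and 2 without control replicate 2, and 0 without any other single library.

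The ATF6 and XBP1 arms of the unfolded protein response, which act beside EIF2AK3 at the endoplasmic reticulum, had mostly positive values. Of 28 listed genes 27 were tested, 3 had an unadjusted p under 0.05 and 24 were positive, with a median log2 fold change of 0.12 and a range from -0.09 to 0.40. SYVN1, a ubiquitin ligase that removes misfolded proteins, had 74.7, 77.4 and 82.1 CPM in the SOX10 libraries, against 37.6, 60.0 and 73.6 CPM in the control libraries, with a log2 fold change of 0.40 (SE 0.18). DERL1, of the same disposal route, had 98.3, 77.0 and 84.0 CPM in the SOX10 libraries, against 73.0, 58.8 and 73.1 CPM in the control libraries, with 0.33 (SE 0.15). Every SOX10 library lay above every control library for both, and the adjusted p by edgeR was 0.766 for each. HSPA5, the main chaperone of the compartment and named after its values were seen, had 1142 ± 79.9 CPM in the SOX10 libraries and 1051 ± 103 CPM in the control libraries (SD, n = 3 each), giving a log2 fold change of 0.12 (SE 0.09). Without control replicate 2 the median was 0.069 and 20 of 27 were positive, the fewest when any single library was left out.

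**Figure D4:**
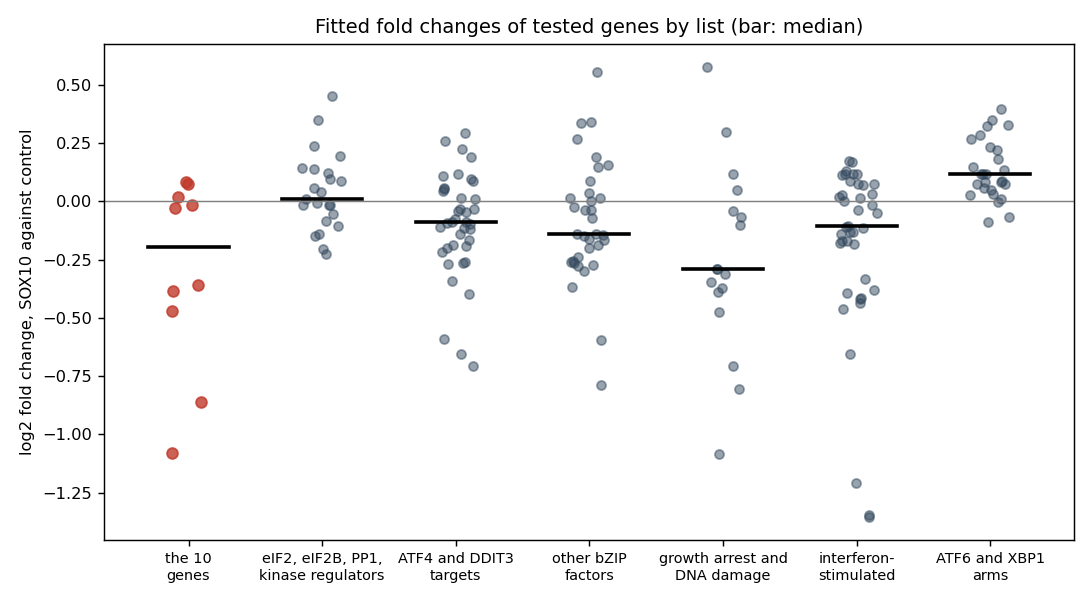
Fitted log2 fold changes, SOX10 against control, of the 10 genes (red) and of the tested genes of 6 further lists (grey), each point a gene and each bar the median of its list. Medians ran from -0.29 for growth arrest and DNA damage genes to 0.12 for the ATF6 and XBP1 arms, and no gene of the 6 lists had an adjusted p under 0.05.

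The genes whose level over the 6 libraries was most like that of PPP1R15A were taken from 6618 tested genes with a mean of at least 20 CPM, by Pearson's r of log2 CPM. They were ZC3HAV1, an antiviral RNA-binding protein (r = 0.996), C10orf137 (r = 0.991) and MRPS12, a mitochondrial ribosomal protein (r = 0.981). For ATF3 they were MRPS12 (r = 0.999), the kinase RIOK3 (r = 0.988) and KCTD9 (r = 0.982). With so many genes and 6 libraries in 2 groups that also differ in depth, values of this height are found by search and carry no p. The measure compares shapes and not sizes. ZC3HAV1 had 134 ± 8.24 CPM in the SOX10 libraries and 199.6 ± 8.28 CPM in the control libraries (SD, n = 3 each), giving a log2 fold change of -0.57 (SE 0.11), whereas MRPS12 had 19.7 ± 0.61 CPM in the SOX10 libraries and 23.1 ± 1.19 CPM in the control libraries (SD, n = 3 each), with -0.22 (SE 0.23).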

How the data were processed

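Total RNA of 6 libraries was sequenced. Per the submitters' processing notes, reads were processed on hg19 with tools that include TopHat 1.4.0, HTSeq and DESeq. Which annotation was counted, and whether by strand, is not stated in the labels used here. The deposited values are raw read counts per gene symbol, and 5 class rows that name no gene were left out. They held 39.4% to 46.9% of records outside genes, 17.7% to 19.1% in more than 1 place and 0.435% to 0.551% ambiguous.

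Columns were matched to samples by title and grouped by the treatment label. The counts of all 6 libraries were fitted with the quasi-likelihood test of edgeR 4.0.16 (R 4.3.3), with TMM scaling, filterByExpr (minimum count 10, total 15), no covariate and Benjamini-Hochberg adjustment over 10678 genes at 0.05. The test was checked on simulated data. A prior count of 0.125 entered the log2 fold changes, the F statistic gave their standard errors, and TMM factors entered the CPM. Replicates varied by 12.7% beyond counting (edgeR's common estimate). Where no read was counted, up to 3 reads (0.727 to 3.46 CPM) may have been missed by counting error alone. Libraries of the same group were not duplicates, since their chi-square over genes was 1.98 to 6.50 times its degrees of freedom.

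The members and lists were chosen with earlier results of these data known. Named are the 10 genes, in each list the 2 of smallest p, the 3 genes most like PPP1R15A and the 3 most like ATF3 (on log2 CPM, prior count 2), and SOX10 and PMP2. Outside this rule, 5 pigment cell markers are named to describe the line, and EIF2AK1, MARS and the genes said to be named after their values were seen are marked where they appear. The interferon element was added to the motifs after the sequences were seen. Alternatives were other scalings and filters, DESeq2 1.42.0, limma-voom (limma 3.58.1), the replicate number as a block, thinning, a covariate, and leaving out libraries. Sequences come from RefSeq (GRCh38.p14) and GENCODE release 29, a build other than that of the counts. Protein sequences were not used here.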

Additional observations from a re-analysis of the deposited data

How the results depend on the processing

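PPP1R15A and ATF3 were chosen for being lower in these counts once scaled to library size. Their values under other processing therefore describe the dependence on it and support nothing. PPP1R15A ran from -1.18 to -1.003 on the log2 scale over the 17 alternatives. ATF3 ran from -1.09 to -0.71 and lost its call with upper-quartile scaling (-0.83), limma-voom (-0.84), without SOX10 replicate 1 and control replicate 3 together (-1.01), and in 5 of 6 fits without a single library (from -0.95 to -0.71, and -1.005 with its call kept without control replicate 3). Its adjusted p ran from 0.00147 to 0.469 over the alternatives. The count of 12 called genes was 48 without a low-count filter, 52 with reads outside genes as a covariate, 7 without SOX10 replicate 1 and control replicate 3, and 6 to 18 without single libraries; the cause was not tested.

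The replicate numbers are not stated to pair the libraries. Same-numbered libraries correlated by -0.030, -0.033 and -0.14 in their deviations from the group means. Libraries of different numbers correlated by -0.103 to 0.151. With 3 libraries per group, these values cannot show whether flasks were paired. With the replicate number as a block, 7 genes were called, all among the 12, and ATF3 had -0.87 without a call.

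Small values turned sign. ATF4 had 0.011 with upper-quartile scaling and 0.015 without a low-count filter, and EIF2AK4 had 5.58e-05 and 0.0041 in the same fits. EIF2AK3 had -0.026 with limma-voom. PPP1R15B had -0.012 after thinning and -0.15 without SOX10 replicate 1 and control replicate 3. Without single libraries ATF4 ran from -0.20 to 0.13, EIF2AK3 from -0.10 to 0.34, EIF2AK4 from -0.076 to 0.066 and PPP1R15B from -0.13 to 0.13.

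Calls in the list of other leucine zipper factors numbered 1 without a low-count filter and 1 with the covariate, and in the interferon list 4 and 5 in these fits and 0 to 2 without single libraries. The eIF2, target, growth arrest and unfolded protein lists had 0 calls in all 17. The low read numbers of DDIT3, CEBPB and TRIB3, at most 68 in a library, limit what their values can show.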
